A study of Mus musculus with 6 samples.

Results

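The miRNAs described here are 7 mature miRNAs known to be induced by inflammatory or activity-dependent signalling: miR-146a-5p, miR-146b-5p, miR-155-5p, miR-147-3p, miR-132-3p, miR-212-3p and miR-212-5p. They were chosen by name, with earlier results of these data known. All 7 were found among the 649 mature miRNA entries of the deposited count table. The libraries hold small RNA of C57 mouse skin from 2 groups of 3 samples, one titled diabetic ulcer and the other normal ulcer. Every title gives day 14, whereas the sample codes in the titles begin with D3; what D3 stands for is not stated, so the day rests on the titles. C57 is an inbred laboratory strain. The labels do not say how diabetes was produced, how the ulcers were made, from which event the day is counted, how old the animals were, or whether samples came from separate animals.

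miR-146a is transcribed on activation of NF-kappaB. miR-146a and miR-146b repress the adaptor proteins Irak1 and Traf6, so that they dampen the Toll-like receptor signal. miR-155 is made from a non-coding host transcript in activated lymphocytes and myeloid cells and represses the signalling inhibitors Socs1 and Inpp5d. miR-147 is induced by Toll-like receptor ligands in mouse macrophages and lowers their cytokine output. miR-132 and miR-212 are processed from a shared transcript that responds to the transcription factor CREB, are best known from neurons, and miR-132 has also been described in the shift of healing skin wounds from inflammation to proliferation.

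The sequences are shown because the 7 miRNAs fall into 5 seed groups, and 2 of the groups hold a pair of relatives. They are written 5′ to 3′ as DNA, as the deposited table gives them, with the seed (bases 2 to 8, which pair with targets) in capitals. The prefix mmu marks mouse and is left out below.
mmu-miR-146a-5p: tGAGAACTgaattccatgggtt
mmu-miR-146b-5p: tGAGAACTgaattccataggct
mmu-miR-155-5p: tTAATGCTaattgtgataggggt
mmu-miR-147-3p: gTGTGCGGaaatgcttctgcta
mmu-miR-132-3p: tAACAGTCtacagccatggtcg
mmu-miR-212-3p: tAACAGTCtccagtcacggcca
mmu-miR-212-5p: aCCTTGGCtctagactgcttact
The seed GAGAACT was shared by miR-146a-5p and miR-146b-5p and by no other entry of the table, and AACAGTC was shared by miR-132-3p and miR-212-3p alone. Counting from 1 at the 5′ end, miR-146b-5p differs from miR-146a-5p by G18A and T21C, both outside the seed. miR-212-3p differs from miR-132-3p by A10C, C14T, T17C, T20C and G22A. How the authors assigned reads between such relatives is not given in the sources used here, so the split between miR-146a-5p and miR-146b-5p carries that uncertainty.

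The precursor hairpins lie at separate places on GRCm38 (RefSeq table, build GRCm38.p6), apart from a pair on chromosome 11. Mir146, the precursor of miR-146a, is on the minus strand at chr11:43374397-43374461 and overlaps no other gene of GENCODE release M21. Mir146b is at chr19:46342762-46342870 in an intron of Mfsd13a, and Mir155 is at chr16:84714140-84714204 in an exon of Mir155hg, its non-coding host transcript. Mir147 is at chr2:122640803-122640881 in the 3′ untranslated part of an exon of AA467197, a protein-coding gene. Mir212 at chr11:75173388-75173478 and Mir132 at chr11:75173682-75173747 are 203 bases apart in an intron of the non-coding 1700016P03Rik, on its strand. Their RefSeq hairpins are shown because 4 mature strands of the results below come from them. Capitals mark the 2 mature strands of each.
Mir212: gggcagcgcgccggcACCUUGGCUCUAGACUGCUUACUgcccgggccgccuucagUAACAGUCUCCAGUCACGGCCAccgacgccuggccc
Mir132: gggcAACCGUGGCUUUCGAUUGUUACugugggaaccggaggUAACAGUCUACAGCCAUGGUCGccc

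Some facts of the whole data set bear on every value below. Totals over all entries were 9309055 and 10762761 counts in diabetic ulcer 1 and 2, and 8949104 and 13421603 in normal ulcer 1 and 2. The sample numbered 3 in each group is not independent of the other 2. For normal ulcer 3 a weighted sum of normal ulcer 1 (weight 0.500) and normal ulcer 2 (weight 0.506) gave the count to within 1 read in 99.4% of 638 entries and in all 7 miRNAs. For diabetic ulcer 3 a linear formula of diabetic ulcer 1 and 2 gave the TPM to within 1% in 85.1% of 222 entries and in 6 of the 7, all but miR-147-3p. For miR-147-3p it gave 22.2 TPM, against a deposited 36.5. The TPM of miR-147-3p that entered the formula for diabetic ulcer 2 did not match its count, so this misfit is no sign of independence. Values and tests below rest on the 4 libraries numbered 1 and 2. The 5 muscle miRNAs fixed as markers, mostly miR-1a-3p, took 35.7% and 44.9% of counts in diabetic ulcer 1 and 2, against 17.2% and 66.1% in normal ulcer 1 and 2. All 7 keratinocyte miRNAs fixed as markers were detected in all 4 libraries. Their summed level was 42820 and 19320 CPM in diabetic ulcer 1 and 2, against 52552 and 22990 CPM in normal ulcer 1 and 2. CPM is 1000000 times the count over the library total after TMM scaling, which sets the libraries against each other by the bulk of their miRNAs and not by their totals. The group names follow the sample titles; the header of the authors' deposited comparison instead calls the samples titled normal ulcer (D3M) the case and those titled diabetic ulcer (D3C) the control. Each direction below therefore rests on the titles.

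The 7 miRNAs spanned nearly 3 orders of magnitude and kept much the same order in the 4 libraries. Together they made up 0.276% and 0.233% of all counts in diabetic ulcer 1 and 2, against 0.418% and 0.160% in normal ulcer 1 and 2. Wilson 95% intervals were 0.272 to 0.279, 0.230 to 0.236, 0.414 to 0.422 and 0.158 to 0.162% for the libraries in that order, and hold counting error alone, because reads after PCR are not separate molecules. miR-146a-5p alone supplied 71.3% and 67.8% of their counts in diabetic ulcer 1 and 2, and 74.2% and 71.8% in normal ulcer 1 and 2. It ranked 37 of the 649 entries by mean CPM over library totals, and miR-146b-5p ranked 75. miR-155-5p and miR-132-3p came next at ranks 130 and 140, and their levels overlapped across libraries (93.5 to 165 and 82.1 to 126 CPM). miR-147-3p and miR-212-3p, at ranks 242 and 277, overlapped as well (3.07 to 31.1 and 8.72 to 12.6 CPM). miR-212-5p was the rarest at rank 356, with 2.17 to 4.04 CPM. All 7 mature forms are 22 or 23 bases long, so no length scaling was applied.

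**Figure D1:**
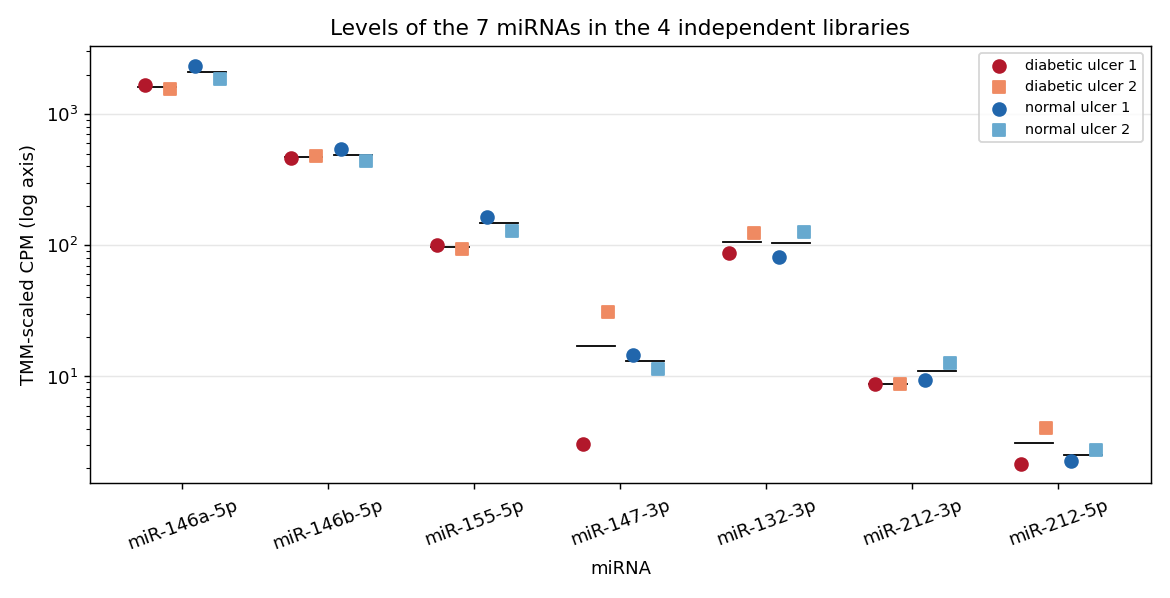
TMM-scaled CPM (log axis) of each of the 7 miRNAs in diabetic ulcer 1 and 2 (red, orange) and normal ulcer 1 and 2 (dark and light blue), with group means as black bars. miR-146a-5p and miR-155-5p lay lower in both diabetic libraries, and miR-147-3p was spread from 3.07 CPM in diabetic ulcer 1 to 31.1 CPM in diabetic ulcer 2.

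The comparison that the labels imply asks whether these miRNAs differ between diabetic and normal ulcer skin. On TMM-scaled CPM, miR-155-5p, miR-146a-5p and miR-212-3p were lower in each diabetic library than in either normal library, miR-147-3p had the lowest and the highest of its levels in the diabetic group, and miR-146b-5p and miR-132-3p had nearly equal group means. No member of the 7 passed the test. edgeR's quasi-likelihood test over the 4 libraries, with Benjamini-Hochberg adjustment over 443 tested miRNAs, called 0 of them at an adjusted p of 0.05, which is 0% of the background. At an unadjusted p under 0.05 it found 4 of 443 (0.903%), none of the 7 among them. They were miR-467c-5p, miR-19b-3p, miR-3102-3p and an entry shared by miR-669a-3p and miR-669o-3p, named here after their values were seen. DESeq2 on the same libraries also called 0, with 3 of 443 at an unadjusted p under 0.05. Of the 7 miRNAs, all of which passed the low-count filter, 3 had a positive and 4 a negative log2 difference (diabetic minus normal), with a median of -0.056 beside a median of -0.016 over all tested miRNAs. The groups did not overlap for 3 of the 7, beside 21.0% of all tested miRNAs. The diabetic libraries were the lower ones for all 3 of these (12.0% of all tested) and the higher ones for 0 of the 7 (9.03%). With 2 libraries per group the smallest 2-sided exact permutation p is 0.333, so such an order cannot be tested on its own. The 7 were also chosen with earlier results known, so these shares are description only. Since separate animals are not stated, a p-value here covers sample-to-sample spread that may be technical.

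**Figure D2:**
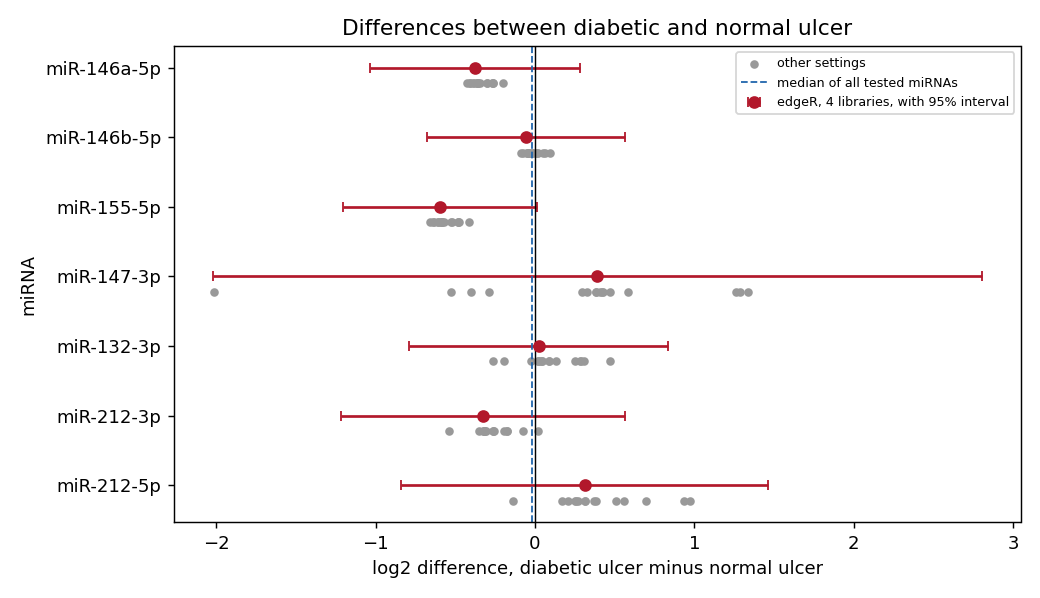
Log2 difference, diabetic ulcer minus normal ulcer, for each of the 7 miRNAs: red points are edgeR estimates over 4 libraries with 95% intervals, grey points the estimates under the other settings, and the dashed line the median of all tested miRNAs. Every interval drawn includes 0, miR-146a-5p and miR-155-5p stayed negative under every setting shown, and miR-147-3p ranged from -2.01 to 1.34.

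miR-155-5p had the lowest log2 difference of the 7. It had 1113 and 1019 counts in diabetic ulcer 1 and 2, against 1964 and 1079 counts in normal ulcer 1 and 2. After scaling these are 101 and 93.5 CPM in diabetic ulcer 1 and 2, against 165 and 129 CPM in normal ulcer 1 and 2. The diabetic libraries differed by less from each other than the normal ones did, and the groups did not overlap. Group means were 97.0 ± 4.97 CPM in diabetic ulcer and 147 ± 25.6 CPM in normal ulcer (SD, n = 2 each). In edgeR the log2 difference was -0.60 ± 0.24 (SE), with a 95% interval of -1.21 to 0.011, an unadjusted p of 0.0529 and an adjusted p of 0.999. The order of the libraries depended on the scaling. As CPM of the library total the levels were 120 and 94.7 in diabetic ulcer 1 and 2, against 219 and 80.4 in normal ulcer 1 and 2. Here the groups overlapped, with normal ulcer 2, where muscle miRNA took the highest share, at the bottom. As CPM of the counts outside the muscle list the levels were 186 and 172 in diabetic ulcer 1 and 2, against 265 and 237 in normal ulcer 1 and 2, without overlap.

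Treating all 6 deposited columns as samples gave miR-155-5p nearly the same difference with a smaller p. edgeR on 6 columns estimated -0.61 (adjusted p = 0.196) and called 0 of 438 miRNAs (0%), whereas 48 (11.0%) had an unadjusted p under 0.05. DESeq2 on 6 columns estimated -0.63 (adjusted p = 0.0367) and called 6 of 438 (1.37%), miR-155-5p being the only one of the 7 among them. These fits treat columns that follow from the others as further samples.

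miR-146a-5p, the most abundant of the 7, followed the order of miR-155-5p. It had 18308 and 17004 counts in diabetic ulcer 1 and 2, against 27754 and 15402 counts in normal ulcer 1 and 2. These are 1654 and 1561 CPM in diabetic ulcer 1 and 2, against 2331 and 1838 CPM in normal ulcer 1 and 2. The groups did not overlap, and the gap between the groups (1654 against 1838 CPM) was smaller than the gap between the normal libraries. Group means were 1608 ± 66.0 CPM in diabetic ulcer and 2084 ± 349 CPM in normal ulcer (SD, n = 2 each). The log2 difference in edgeR was -0.37 ± 0.26 (SE), with a 95% interval of -1.03 to 0.28 and an adjusted p of 0.999. As for miR-155-5p, the groups did not overlap as CPM of the counts outside the muscle list (3058 and 2870 in diabetic ulcer 1 and 2, against 3743 and 3390 in normal ulcer 1 and 2) and overlapped as CPM of the library total (1967 and 1580 in diabetic ulcer 1 and 2, against 3101 and 1148 in normal ulcer 1 and 2).

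miR-146b-5p, which shares the seed of miR-146a-5p but is transcribed from chromosome 19, had nearly equal levels in both groups. It had 463 and 479 CPM in diabetic ulcer 1 and 2, against 539 and 440 CPM in normal ulcer 1 and 2. Both diabetic values lay between the normal ones. Means were 471 ± 11.7 CPM in diabetic ulcer and 489 ± 70.4 CPM in normal ulcer (SD, n = 2 each), and the log2 difference was -0.056 ± 0.25 (SE; 95% interval -0.68 to 0.57; adjusted p = 0.999 in edgeR). Its sign was positive under 6 of the 16 other settings.

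miR-147-3p was the most variable of the 7. It had 34 and 339 counts in diabetic ulcer 1 and 2, against 175 and 95 counts in normal ulcer 1 and 2. Exact Poisson 95% intervals of these counts were 23.5 to 47.5 and 304 to 377 in diabetic ulcer 1 and 2, and 150 to 203 and 76.9 to 116 in normal ulcer 1 and 2. They cover counting error only, on raw counts of libraries that differ in depth. Scaled levels were 3.07 and 31.1 CPM in diabetic ulcer 1 and 2, against 14.7 and 11.3 CPM in normal ulcer 1 and 2, so that the diabetic libraries were the lowest and the highest and the normal ones lay between. The authors' deposited TPM was 1.61 and 8.38 in diabetic ulcer 1 and 2, against 8.22 and 4.51 in normal ulcer 1 and 2. In diabetic ulcer 2 this TPM was lower than its count implies at the multiple shared by the others of the 7. The spread is therefore smaller by the TPM than by the count. The authors' deposited mean for the control, 315, followed the diabetic ulcer 2 count of 339 at the multiple shared by the others of the 7. The TPM was thus the value out of step, and the source of the mismatch was not tested. On the log2(CPM + 1) scale diabetic ulcer 2 exceeded diabetic ulcer 1 by 2.98, which was the rank 3 difference in size among the 443 tested miRNAs (median size 0.36). The normal libraries differed by -0.35 (normal ulcer 2 minus normal ulcer 1), close to the median size of 0.33 for that pair. The log2 difference between groups was 0.39 ± 0.97 (SE; 95% interval -2.02 to 2.80; adjusted p = 0.999 in edgeR), and it was -2.01 without diabetic ulcer 2 and 1.26 without diabetic ulcer 1.

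The other strand of the same hairpin was likewise spread within the diabetic group. miR-147-5p (tGGAAACAtttctgcacaaactag) had 26 and 114 counts in diabetic ulcer 1 and 2, against 49 and 55 in normal ulcer 1 and 2. Its scaled level was 2.35 and 10.5 CPM in diabetic ulcer 1 and 2, against 4.12 and 6.56 CPM in normal ulcer 1 and 2, with its lowest and its highest level in the diabetic libraries. Its difference between diabetic ulcer 2 and diabetic ulcer 1, 1.78 on the log2(CPM + 1) scale, had rank 6 of 443. The summed level of the leukocyte miRNAs was also highest in diabetic ulcer 2 and lowest in diabetic ulcer 1: the 6 fixed markers, none at 0 in any library, summed to 652 and 1416 CPM in diabetic ulcer 1 and 2, against 764 and 911 CPM in normal ulcer 1 and 2. The sum was carried by miR-223-3p and miR-142a-3p, and not all 6 followed it. miR-511-3p had 28.7 and 18.4 CPM in diabetic ulcer 1 and 2, against 24.8 and 19.5 CPM in normal ulcer 1 and 2, and miR-342-3p had 27.1 and 27.8 CPM in diabetic ulcer 1 and 2, against 33.2 and 27.7 CPM in normal ulcer 1 and 2. The myeloid miR-223-3p had 322 and 720 CPM in diabetic ulcer 1 and 2, against 445 and 536 CPM in normal ulcer 1 and 2. miR-147-3p differed more than miR-223-3p between the diabetic libraries, with 0.00955 and 0.0432 reads per miR-223-3p read in diabetic ulcer 1 and 2, against 0.0330 and 0.0211 in normal ulcer 1 and 2. The part of leukocyte content in the miR-147 values was not tested, and in tissue libraries fewer cells of a type and less RNA per cell cannot be told apart.

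**Figure D3:**
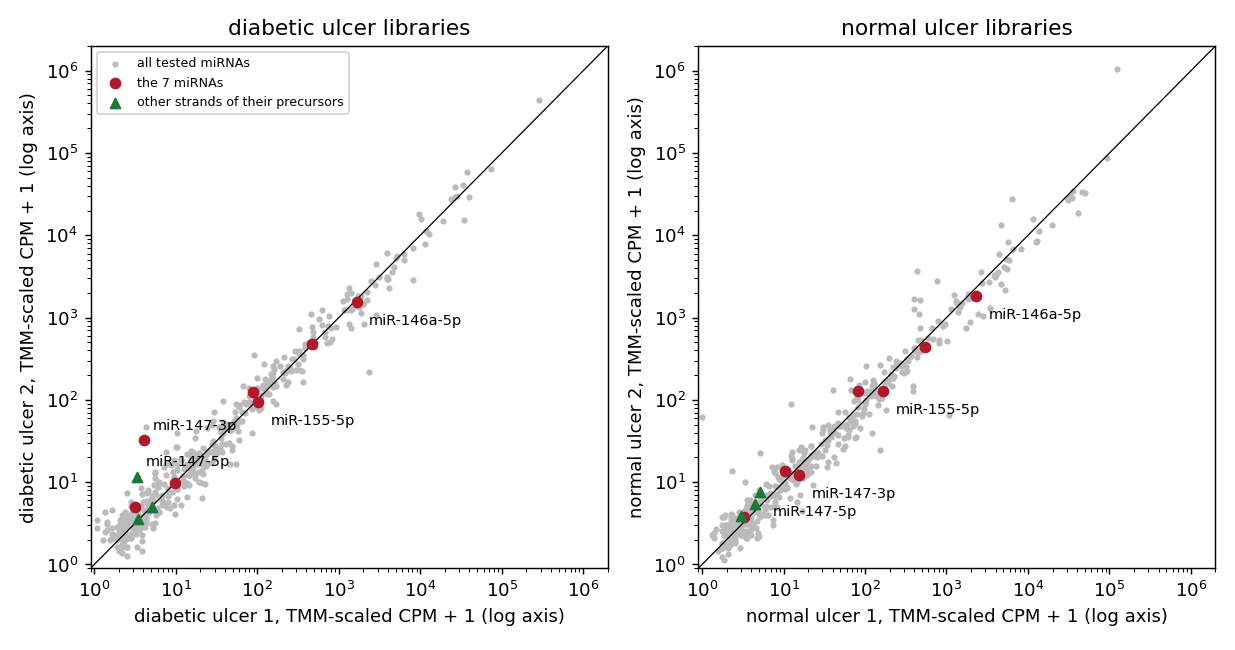
TMM-scaled CPM + 1 of every tested miRNA (grey) in library 2 against library 1, for diabetic ulcer on the left and normal ulcer on the right (log axes; the line marks equal levels). The 7 miRNAs (red) lay near the line except miR-147-3p, which with miR-147-5p (green, with the other strands) stood above it in the diabetic libraries, at 31.1 and 10.5 CPM in diabetic ulcer 2.

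miR-132-3p and miR-212-3p, neighbours on a single transcript with the same seed, differed in level by about an order of magnitude, and neither passed the test between groups. miR-132-3p had 970 and 1345 counts in diabetic ulcer 1 and 2, against 977 and 1055 in normal ulcer 1 and 2. At 87.6 and 123 CPM in diabetic ulcer 1 and 2, against 82.1 and 126 CPM in normal ulcer 1 and 2, it was split by library number and not by group. Its means were 106 ± 25.3 CPM in diabetic ulcer and 104 ± 31.0 CPM in normal ulcer (SD, n = 2 each), and its log2 difference was 0.022 ± 0.32 (SE; 95% interval -0.79 to 0.83; adjusted p = 0.999 in edgeR).

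miR-212-3p was rarer, with 97 and 95 counts in diabetic ulcer 1 and 2, against 111 and 106 in normal ulcer 1 and 2. It had 8.76 and 8.72 CPM in diabetic ulcer 1 and 2, against 9.32 and 12.6 CPM in normal ulcer 1 and 2. The groups did not overlap, but the nearest libraries were close, at 8.76 CPM in diabetic ulcer 1 and 9.32 CPM in normal ulcer 1. As CPM of the counts outside the muscle list the groups overlapped, at 16.2 and 16.0 in diabetic ulcer 1 and 2, against 15.0 and 23.3 in normal ulcer 1 and 2. The log2 difference was -0.33 ± 0.36 (SE; 95% interval -1.22 to 0.56; adjusted p = 0.999 in edgeR), and without normal ulcer 2 it was 0.017.

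miR-212-5p, the strand opposite miR-212-3p in the Mir212 hairpin, rested on 24 and 44 counts in diabetic ulcer 1 and 2, against 27 and 23 in normal ulcer 1 and 2. It had 2.17 and 4.04 CPM in diabetic ulcer 1 and 2, against 2.27 and 2.74 CPM in normal ulcer 1 and 2, with diabetic ulcer 2 above the other libraries. The log2 difference was 0.31 ± 0.46 (SE; 95% interval -0.84 to 1.46; adjusted p = 0.999 in edgeR), and without diabetic ulcer 2 it was -0.14. miR-132-5p, the opposite strand of Mir132, had 2.44 and 2.57 CPM in diabetic ulcer 1 and 2, against 2.02 and 2.86 CPM in normal ulcer 1 and 2.

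Ratios of 2 miRNAs within a library do not depend on how libraries are scaled, and 11 were computed. miR-146a-5p outnumbered miR-146b-5p 3.58 and 3.26 times in diabetic ulcer 1 and 2, against 4.32 and 4.18 times in normal ulcer 1 and 2. The exact 95% counting intervals were 3.47 to 3.69 and 3.16 to 3.36 in diabetic ulcer 1 and 2, and 4.21 to 4.44 and 4.03 to 4.33 in normal ulcer 1 and 2. The intervals of the diabetic libraries did not overlap each other either, so counting error does not cover the spread between libraries of a group. Neither the ratio of miR-146a-5p to miR-155-5p nor the ratios to leukocyte miRNAs, given elsewhere, were among those planned. The ratio of miR-146a-5p to miR-155-5p was steadier. It was 16.4 and 16.7 in diabetic ulcer 1 and 2, against 14.1 and 14.3 in normal ulcer 1 and 2. In both ratios the libraries of a group differed by less than the nearest libraries of different groups, an order that 2 libraries per group cannot test. Groups did not overlap in 4 of the 11 ratios, against 22.1% of the ratios of all 97903 pairs of tested miRNAs, and the 11 share members, so they are not separate observations.

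In the other 2 ratios without overlap, single libraries stood apart. miR-132-3p over miR-212-3p was 10 and 14.2 in diabetic ulcer 1 and 2, against 8.80 and 9.95 in normal ulcer 1 and 2, where diabetic ulcer 1 and normal ulcer 2 were nearly equal. miR-212-3p over miR-212-5p was 4.04 and 2.16 in diabetic ulcer 1 and 2, against 4.11 and 4.61 in normal ulcer 1 and 2, so diabetic ulcer 2 stood apart. miR-147-3p over miR-147-5p was 1.31 and 2.97 in diabetic ulcer 1 and 2, against 3.57 and 1.73 in normal ulcer 1 and 2, with overlapping groups.

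**Figure D4:**
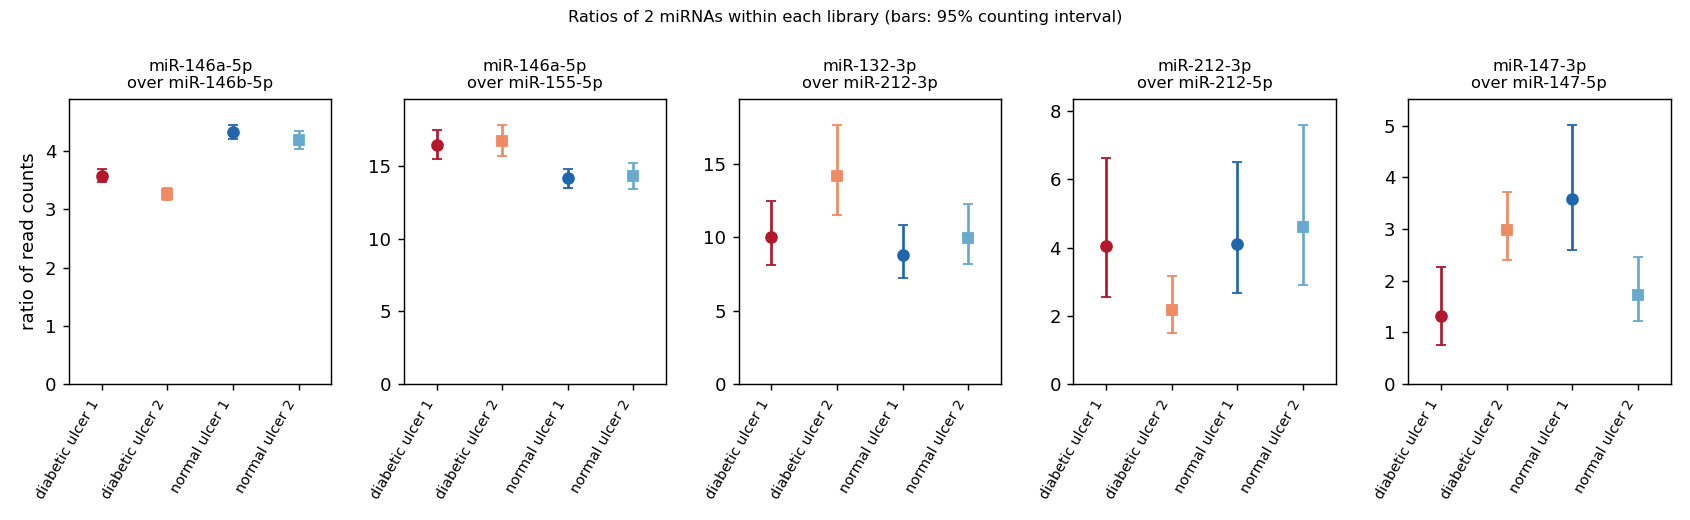
Ratio of the read counts of 2 miRNAs in each library (linear axes from 0; bars are exact 95% counting intervals), diabetic ulcer 1 and 2 left of normal ulcer 1 and 2. miR-146a-5p over miR-146b-5p was 3.58 and 3.26 in the diabetic libraries against 4.32 and 4.18 in the normal ones, whereas the last 3 ratios varied within a group as much as between groups.

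In each of the 5 precursors with both strands in the table, the strand known as the guide was the more abundant in all 4 libraries, but the excess differed widely. miR-146b-5p outnumbered miR-146b-3p 111 and 119 times in diabetic ulcer 1 and 2, against 153 and 99.6 times in normal ulcer 1 and 2. miR-132-3p outnumbered miR-132-5p 35.9 and 48 times in diabetic ulcer 1 and 2, against 40.7 and 44.0 times in normal ulcer 1 and 2. Both ratios overlapped between groups. miR-155-3p had 0 and 10 counts in diabetic ulcer 1 and 2, against 10 and 3 in normal ulcer 1 and 2, and did not pass the low-count filter. A count of 0 allows up to 3 counts, or 0.322 CPM of the library total in diabetic ulcer 1. Among the 3 tested other strands (miR-146b-3p, miR-147-5p and miR-132-5p), 3 had a positive log2 difference, 0 passed, and the median was 0.050 beside -0.016 for all tested miRNAs.

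Over the 4 libraries the 7 miRNAs were compared with 268 others of at least 10 CPM by the root mean square distance of their centred log2(CPM + 1) values, a description with 4 points that share scaling and tissue makeup. miR-146a-5p was nearest to miR-26b-5p (0.034, where the median distance of the 268 was 0.301), miR-195a-5p (0.052) and miR-26a-5p (0.10). miR-155-5p was also nearest to miR-26b-5p (0.092, median 0.375), then miR-381-3p (0.12) and miR-30e-5p (0.12). miR-146b-5p lay closest to let-7j, miR-221-5p and miR-21a-5p, at 0.020, 0.027 and 0.027. miR-21a-5p, raised in many inflamed tissues, had 28538 and 29993 CPM in diabetic ulcer 1 and 2, against 34427 and 28504 CPM in normal ulcer 1 and 2. For miR-132-3p the nearest were miR-379-3p, miR-30c-5p and miR-425-5p (0.033 to 0.075), for miR-212-3p miR-30d-5p, miR-125b-1-3p and miR-185-5p (0.060 to 0.105), and for miR-212-5p miR-423-5p, miR-126a-5p and miR-151-3p (0.056 to 0.087). miR-147-3p had no near neighbour: its closest were miR-450b-5p, miR-142a-5p and miR-129-5p at 0.55 to 0.58, all highest in diabetic ulcer 2 and lowest in diabetic ulcer 1. Among the 7 themselves the nearest pair was miR-146a-5p and miR-155-5p at 0.11, closer than the seed relatives miR-146a-5p and miR-146b-5p at 0.17 or miR-132-3p and miR-212-3p at 0.25.

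Taken over all 7, the libraries farthest apart were the diabetic ones and the closest were the normal ones. The root mean square log2 distance was 1.17 between the diabetic libraries and 0.38 between the normal libraries, and it ranged from 0.61 to 0.81 between libraries of different groups. Without miR-147-3p the distance between the diabetic libraries was 0.34. The remaining pairs then ranged from 0.34 to 0.54. Over all tested miRNAs the normal libraries were instead the farthest apart, at 0.74. There the diabetic libraries were at 0.66, and libraries of different groups at 0.42 to 0.69.

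The list of 12 further miRNAs of the inflammatory response gave no called member in either direction. Among them, 3 had a positive and 9 a negative log2 difference, with a median of -0.10 beside -0.016 for all tested miRNAs. The most abundant were miR-21a-5p, given above, miR-99b-5p, miR-125b-5p and let-7e-5p. miR-99b-5p had 3134 and 3130 CPM in diabetic ulcer 1 and 2, against 3369 and 2719 CPM in normal ulcer 1 and 2. The groups did not overlap for 1 of the 12, beside 21.0% of all tested miRNAs. That 1 was let-7e-5p, which is encoded beside miR-99b and miR-125a, with 1224 and 1229 CPM in diabetic ulcer 1 and 2, against 1533 and 1505 CPM in normal ulcer 1 and 2 (log2 difference -0.31 ± 0.24 SE; adjusted p = 0.999 in edgeR).

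Of the 6 leukocyte markers, 5 had a positive and 1 a negative log2 difference (median 0.09), 0 passed, and the groups were free of overlap for 0 of the 6, beside 21.0% of all tested miRNAs. miR-142a-3p, found across blood cells, had 90.6 and 348 CPM in diabetic ulcer 1 and 2, against 104 and 121 CPM in normal ulcer 1 and 2. miR-150-5p, of mature lymphocytes, had 148 and 205 CPM in diabetic ulcer 1 and 2, against 82.6 and 153 CPM in normal ulcer 1 and 2. Per read of miR-223-3p there were 5.14 and 2.17 reads of miR-146a-5p in diabetic ulcer 1 and 2, against 5.24 and 3.43 in normal ulcer 1 and 2. Library 2 was lower than library 1 in each group. Per read of miR-142a-5p there were 2.74 and 0.962 reads of miR-155-5p in diabetic ulcer 1 and 2, against 2.21 and 2.39 in normal ulcer 1 and 2. With these leukocyte miRNAs as the denominator, the groups overlapped for both.

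Markers of other tissues differed between libraries as well, with 0 called in every list and, for every member tested, overlapping groups. The muscle list had 5 of 5 negative log2 differences (median -0.68), and the keratinocyte list 6 of 7 (median -0.28). The direction turned for some members of both lists when 1 library was left out. miR-499-5p had 1 and 19 counts in diabetic ulcer 1 and 2, against 0 and 505 counts in normal ulcer 1 and 2. Without normal ulcer 2 the log2 difference was 1.67 for miR-1a-3p, 2.12 for miR-133a-3p and 1.09 for miR-133b-3p. Without normal ulcer 1 it was 0.42 for miR-203-3p, 0.61 for miR-205-5p and 0.52 for miR-200a-3p. Endothelial miRNAs summed to 9978 and 18281 CPM in diabetic ulcer 1 and 2, against 11780 and 15827 CPM in normal ulcer 1 and 2, so that library 2 was the higher in each group, as for miR-132-3p. Fibroblast miRNAs summed to 15594 and 10837 CPM in diabetic ulcer 1 and 2, against 17346 and 11115 CPM in normal ulcer 1 and 2, with library 1 the higher. Erythroid miRNAs summed to 197 and 276 CPM in diabetic ulcer 1 and 2, against 204 and 339 CPM in normal ulcer 1 and 2. The 3 tested neural miRNAs summed to 171 and 224 CPM in diabetic ulcer 1 and 2, against 152 and 245 CPM in normal ulcer 1 and 2. The neuronal miR-124-3p had 0 counts in both diabetic libraries, against 7 and 6 in normal ulcer 1 and 2. It did not pass the low-count filter and is not in this sum. The part of tissue makeup in the levels of the 7 miRNAs was not tested.

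The authors' deposited table gives its own comparison for the 7 miRNAs, but its group means do not follow the titles. Its mean for the case was met within 1% for 100% of 640 miRNAs by a weighted sum of diabetic ulcer 1, normal ulcer 1 and normal ulcer 2 with weights of 0.329, 0.283 and 0.412. Its mean for the control was met within 1% for 99.5% of 631 miRNAs by diabetic ulcer 2 with a weight of 0.929, the weights of the other 3 libraries being 0.001 or less. Its means therefore set diabetic ulcer 2 against the other 3 libraries. In the authors' deposited table miR-147-3p had the lowest p of the 7, at 0.0303 with a q of 0.991 and a log2 fold change (case over control) of -1.66. The authors' deposited table also gave miR-155-5p a log2 fold change of 0.53 and miR-146a-5p one of 0.36. No q of the 7 was below 0.991 in the authors' deposited table.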

How the data were processed

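Small RNA of 6 skin samples was isolated with the mirVana kit and prepared for Illumina sequencing, per the labels' protocols. The build is GRCm38 (mm10) per the submitters' processing notes; the sources used here do not name the aligner, the counter or the miRNA annotation. The deposited counts are whole reads per mature miRNA entry, unnormalized. The authors' TPM values are, for most entries, a constant multiple of the count within each library numbered 1 or 2. The TPM of miR-147-3p in diabetic ulcer 2 was an exception. The authors' comparison holds base means from an unpaired DESeq2 run, a fold ratio with its log2, and a p-value with its q-value, per the file headers. Columns were mapped by the code in each title, with 0 left over.

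Libraries 1 and 2 of each group were tested in edgeR 4.0.16 (R 4.3.3) with the quasi-likelihood F test, TMM scaling, the default filterByExpr filter and group as the only term, with calls at an adjusted p of 0.05. TMM factors were 1.19 and 1.01 in diabetic ulcer 1 and 2, and 1.33 and 0.624 in normal ulcer 1 and 2. An SE is the log2 difference over the square root of F. The code was tested on simulated counts. Formulas for the columns numbered 3 were fitted by median regression on entries with at least 200 counts. Alternatives were DESeq2 1.42.0, limma 3.58.1 (voom, and log2(TPM + 1)), all 6 columns, other scalings and filters, removal of the muscle list, a replicate block and leaving out libraries. DESeq2 on 6 columns and CPM of the counts outside the muscle list were added after seeing the data.

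The 7 miRNAs and all lists were chosen with earlier results of these data known. Named miRNAs are the 7, the other strands of their precursors, up to 4 abundant members of each list, and the 3 tested miRNAs of at least 10 CPM nearest to each of the 7. Hairpins and their places come from RefSeq (build GRCm38.p6), where 6 of the 7 mature names matched, and gene context from GENCODE release M21.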

Additional observations from a re-analysis of the deposited data

How the results depend on the processing

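Of 110 values of single members under 16 alternatives, 94 kept their sign and stayed short of the threshold, and 15, in 5 of the 7 miRNAs, changed sign without passing. miR-155-5p and miR-146a-5p stayed negative in every alternative run, at -0.66 to -0.41 and -0.43 to -0.20 (log2, adjusted p = 0.0367 to 1.00 and 0.288 to 1.00 over edgeR, DESeq2 and limma), and of all alternatives only DESeq2 on 6 columns called miR-155-5p (-0.63). There 1 of the 7 and 6 miRNAs in all were called, against 0 and 0 in edgeR over 4 libraries. Scaling to library totals called 1 miRNA, miR-499-5p, named after its values were seen; it moved the median of all tested miRNAs to 0.17, beside which miR-146b-5p at 0.0617 and miR-146a-5p at -0.26 were lower. miR-146b-5p was also positive with 6 columns (0.0065), with no filter (0.0147), with the muscle list removed (0.0194) and on deposited TPM (0.0498). miR-147-3p turned negative with limma-voom (-0.40), deposited TPM (-0.53) and the replicate block (-0.29), and miR-132-3p with upper quartile scaling (-0.0252). The deposited TPM estimate for miR-147-3p used the diabetic ulcer 2 value that did not match its count. Leaving out 1 library at a time gave 0 to 6 called miRNAs in all, 6 without normal ulcer 1, and 0 of the 7. It gave log2 differences of -0.0854 to 0.0933 for miR-146b-5p, -2.01 to 1.26 for miR-147-3p, -0.26 to 0.47 for miR-132-3p, -0.54 to 0.0171 for miR-212-3p and -0.14 to 0.70 for miR-212-5p; the library left alone in its group was assumed to vary like the others. The cause of the sign changes was not tested. Libraries with the same number deviated together (r = 0.454 across tested miRNAs), but the labels give the number no meaning. With it as a replicate block edgeR called 0 of 443 miRNAs. At an unadjusted p under 0.05 there were 20 of 443, a share below 0.05. Among these was 1 of the 7 (miR-155-5p, 95% interval -1.12 to -0.059, unadjusted p = 0.0366, adjusted p = 0.992 in edgeR). With 2 libraries per group the intervals were wide. Counts below 50 in all 4 libraries limited miR-155-3p, miR-212-5p, miR-132-5p and miR-146b-3p. Counts were also below 50 for miR-147-3p in diabetic ulcer 1 (34), and for miR-147-5p in diabetic ulcer 1 (26) and normal ulcer 1 (49).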
